A study of Mus musculus with 32 samples.

Results

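The transcripts of the cytosolic ribosomal protein genes were measured in plasma cells, light zone and dark zone germinal centre B cells and naive B cells of immunized mice. The members were the protein-coding genes whose name is Rpl or Rps with a number, followed at most by a letter and a digit, together with Rplp0, Rplp1, Rplp2 and Rpsa. The ribosomal S6 kinases were left out, and a gene needed at least 10 counts summed over the 32 libraries. The names matched 83 genes, and 81 of them met the count minimum, of 53465 genes in the table. Rpl10l, with 0 counts, and Rpl3l, with 1 count, fell below the minimum, and Rpl39l, with 22, and Rpl23a, with 83, lay nearest above it. The choice used names and total counts and no difference between groups.

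Ribosomal proteins, together with the ribosomal RNAs, form the large (Rpl) and small (Rps) subunits of the ribosome, which translates all cytosolic messages. Their messages belong to the 5′ terminal oligopyrimidine (TOP) class, which starts with a C and a run of pyrimidines and whose translation is driven by mTORC1, a kinase complex downstream of PI3K. Naive B cells are small resting cells, germinal centre B cells divide rapidly, and plasma cells translate large amounts of antibody. The series asks how activated PI3K-delta acts on these populations.

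There were 8 groups of 4 libraries, plasma cells, light zone, dark zone and naive B cells of aPIK3CD mice and the same populations of WT mice. Animals of both genotypes were C57BL/6 mice aged 12 weeks that carried AID-cre, a recombinase named after the enzyme AID of activated B cells, and aPIK3CD denotes activated PIK3CD, the catalytic subunit of PI3K-delta. Spleens were taken on day 14 after injection of NP-CGG in alum, which raises a T cell dependent antibody response, and 500 cells per library were sorted into a SMART-Seq v4 low-input reaction. The labels do not say whether libraries of a group came from separate animals, so the p-values measure the spread between these libraries. In the 4 libraries titled aPIK3CD replicate 1 the genotype field reads WT. Grouping followed the titles, and no count of members in the comparison of the genotypes changed when these libraries were counted as WT. Counts of members called against naive B cells did change. For the light zone they went from 45 to 37 in aPIK3CD and from 52 to 57 in WT. For plasma cells they went from 40 to 33 in aPIK3CD and from 45 to 50 in WT.

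Total gene counts ran from 473149 to 2820830 in 31 libraries, and dark zone WT replicate 3 held only 25797. Counts of called members and the members' medians in comparisons with the dark zone in WT are given with and without that library. Other values of that group include it where its omission is not stated, except after thinning, a fit that leaves it out. Summed levels of 6 plasma cell markers, in CPM (counts scaled to a common library total), were 8682 to 11689.8 in plasma cells and 453 to 624 in naive B cells, and 6 germinal centre markers summed to 1892 to 3528 in both zones and 45.2 to 101 in naive B cells. Sums of 3 dark zone markers, 278 to 419.7 in the light zone and 465 to 641 in the dark zone, and of 4 light zone markers, 1247 to 1728 and 543 to 986, did not overlap between the zones. Summed T cell markers (6 genes) were 129 to 339 in plasma cells, 49.9 to 214 in the light zone and 7.72 to 81.9 in naive B cells, with none of the 6 at 0 in all libraries of any of these groups. Summed myeloid markers (7 genes) were 6.34 to 396, 7.93 to 355 and 5.58 to 53.2 in the same populations in the same order. Itgam, S100a8 and S100a9 were at 0 in all 8 plasma cell libraries, Itgam also in all light zone libraries and S100a9 in all naive ones. Summed erythroid markers (5 genes) were 0 to 212 in plasma cells of aPIK3CD mice and 0 to 5.68 in those of WT mice. They were 18.9 to 46.9 in the light zone and 3.90 to 35.5 in naive B cells. The part of such cells in the ribosomal protein values was not tested. In these pools of sorted cells, fewer cells of a type and less RNA per cell cannot be told apart.

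The start of the message defines the TOP class, so the annotated start sites of members named below are shown with the genes that differ from them. Each run gives 30 bases before and 30 bases from the start site, 5′ to 3′ on the gene's strand, from RefSeq promoters (GRCm38.p6), and capitals mark a C with at least 4 pyrimidines after it that begins within 5 bases of the start.
Rplp2 (chr7:141447621-141447680, plus strand): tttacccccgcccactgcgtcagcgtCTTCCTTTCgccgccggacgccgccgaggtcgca
Rps6 (chr4:86857338-86857397, minus strand): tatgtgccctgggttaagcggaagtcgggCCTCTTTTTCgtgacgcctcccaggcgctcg
Rpl13a (chr7:45128716-45128775, minus strand): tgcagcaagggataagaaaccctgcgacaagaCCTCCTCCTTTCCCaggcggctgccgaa
Rps27 (chr3:90213619-90213678, minus strand): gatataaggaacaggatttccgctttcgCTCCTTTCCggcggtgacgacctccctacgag
Rps27l (chr9:66946056-66946115, plus strand): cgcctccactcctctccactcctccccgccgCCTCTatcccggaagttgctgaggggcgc
Rpl22l1 (chr3:28805478-28805537, plus strand): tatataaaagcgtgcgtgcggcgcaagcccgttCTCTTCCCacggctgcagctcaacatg
Rpl22 (chr4:152325696-152325755, plus strand): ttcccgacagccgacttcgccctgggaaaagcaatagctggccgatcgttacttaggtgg
Rpl7l1 (chr17:46782627-46782686, minus strand): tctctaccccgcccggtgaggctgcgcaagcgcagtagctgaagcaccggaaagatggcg
Rplp2 is a stalk protein that recruits translation factors, Rps6 is the substrate of the S6 kinases, and Rpl13a is a large subunit protein. Rps27l, Rpl22l1 and Rpl7l1 are paralogs named after Rps27, Rpl22 and Rpl7. Of the 81 members, 61 had RefSeq promoters, 72 start sites in all. A C followed by 4 pyrimidines stood exactly at the start in 13 of the 72, or 18.1%, in 0 of 75 start sites of mitochondrial ribosomal protein genes, and in 823 of 32851 start sites of all genes, or 2.51%. Within 5 bases of the start, on the gene's strand alone, it was found in 43.1% of the members' start sites, 22.7% of the mitochondrial ones and 18.3% of all. The marked run is long and near the start in Rplp2, Rps6, Rpl13a and Rps27, whereas the windows of Rpl22 and Rpl7l1 hold none there. Rpl22 and Rps27l each had another start site, which held no such run.

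Measured levels differed widely between members. As mean CPM, here and below scaled by the trimmed mean of M values (TMM), per kb of exon over all libraries, Rpl4 had 406, Rpl8 381, Rps15 294 and Rplp1 284. At the low end were Rps6 with 4.28, Rpl5 with 3.29, Rpl24 with 2.19, Rpl23a with 1.83 and the paralog Rpl39l with 0.521 CPM per kb. Rpl4, Rpl8, Rpl24 and Rpl23a are large subunit proteins, Rps15 is a small subunit protein, Rplp1 belongs to the stalk, and Rpl5 carries the 5S RNA into the large subunit. Ribosomal protein genes have many processed pseudogenes, and 79 of the 81 members shared at least 1 stretch of 50 bases with an annotated pseudogene. A median of 46.7% of the 50-base windows of a member's main transcript occurred in no other annotated gene. The 44 members with under 50% of unique windows had a median of 15.6 CPM per kb, and the 37 others had 48.6. Over the 81 genes the Spearman rho of unique share and level was 0.482, a description over genes measured in the same libraries. Rps6 had 15.4% unique windows and 370 counts in all 32 libraries, and Rps27 had 1.35% and 879 counts. Rows annotated as ribosomal protein pseudogenes, 290 in number, held 0.0071% to 0.0349% of a library's counts. Levels of different members are therefore not compared further, apart from the ratios of paralogs below, which carry this limit. The sources used here do not state how reads matching several places were counted.

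**Figure D1:**
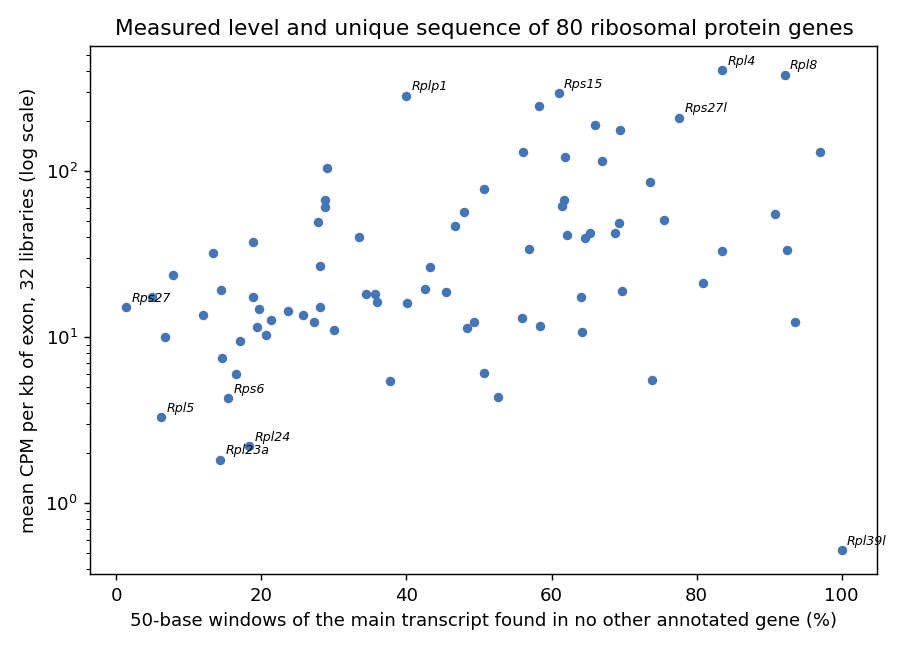
Mean level over 32 libraries (CPM per kb of exon, log scale) of 80 of the 81 ribosomal protein genes against the share of 50-base windows of its main transcript found in no other annotated gene (percent). Rps6, Rpl5, Rpl23a and Rpl24 lie low at under 20% unique windows, Rpl4 and Rpl8 lie high at over 80%, and Rpl39l is low with all windows unique.

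Together the members took a small share of each library, which averaged 0.706 ± 0.0286% in plasma cells of aPIK3CD mice and 0.860 ± 0.122% in those of WT mice (SD, n = 4 each). Light zone libraries had 0.829 ± 0.0804% in aPIK3CD and 0.916 ± 0.199% in WT, and naive B cells 0.546 ± 0.0506% and 0.535 ± 0.0470%. Dark zone libraries had 0.754 ± 0.112% in aPIK3CD and 0.814 ± 0.0278% in WT without replicate 3 (n = 3), a library in which the share was 2.42%. The share was thus lowest in naive B cells, and within every population the ranges of aPIK3CD and WT overlapped. The number of counts behind the share varied far less than library size. Summed member counts were 10469 to 13365 in the light zone, 10275 to 12165 in 7 dark zone libraries and 11376 to 13972 in naive B cells, although totals ran from 902088 to 2820830. Plasma cell libraries, the shallowest, held 4507 to 5362.

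**Figure D2:**
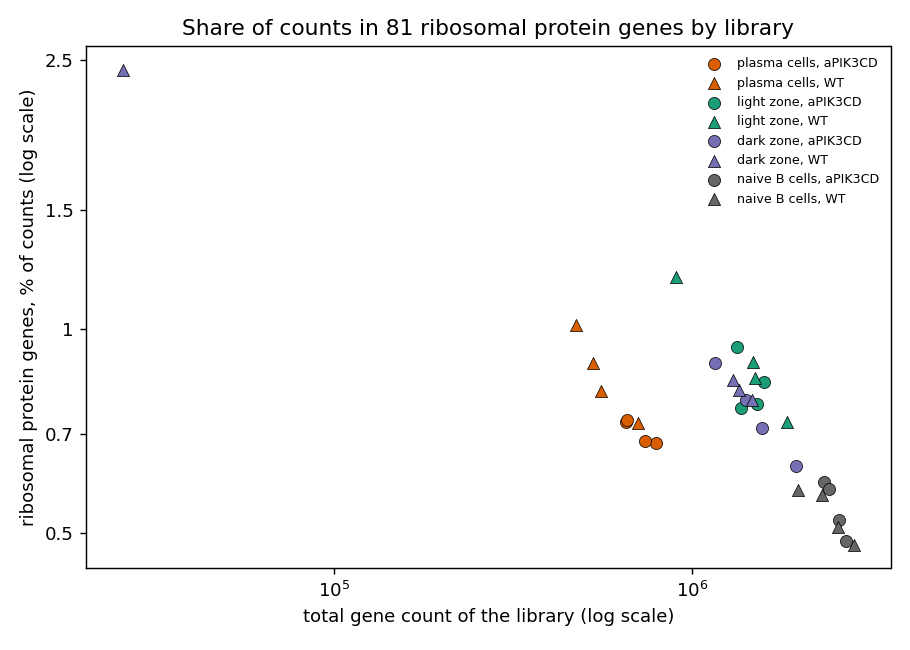
Percent of a library's counts in the 81 ribosomal protein genes (log scale) against its total gene count (log scale) for each of 32 libraries, coloured by population, with circles for aPIK3CD and triangles for WT. Naive B cell libraries, the deepest, lie lowest at 0.481% to 0.595%, plasma cell libraries at 0.680% to 1.01% overlap the light zone ones at 0.728% to 1.19%, and dark zone WT replicate 3 stands alone at 25797 counts and 2.42%.

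Depth moved with these genes inside the groups too. Over 31 libraries, without dark zone WT replicate 3, the within-group slope of log2 CPM per doubling of the total had a median of -0.67 over the 78 members fitted, and 71 of the slopes were negative. The same median was 0.065 over 11736 genes, -0.38 over 23 other TOP genes and -0.15 over 77 mitochondrial ribosomal protein genes. Slopes were steepest for the small subunit genes Rps21 (-1.29), Rps15a (-1.22) and Rps28 (-1.21), and positive for Rpl5 (0.82), Rpl9 (0.65), Rpl10 (0.43) and Rpl7l1 (0.40). Each comparison is therefore given with the totals of its libraries and again with the log2 total as a covariate, a fit that for the populations was added after seeing the data.

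Across the 8 groups, with dark zone WT replicate 3 left out, the highest mean CPM was in a plasma cell group for 38 members, in a light zone group for 35, in a naive group for 6 and in a dark zone group for 2. The lowest was in a naive group for 57 members and in a plasma cell group for 22. Plasma cells thus held both the highest and the lowest values. Light zone and dark zone columns look alike in the heat map, and the members lowest in plasma cells (Rpl12, Rpl10a, Rpl28, Rpl23a and Rps6 at the end of the map) had few counts there.

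**Figure D3:**
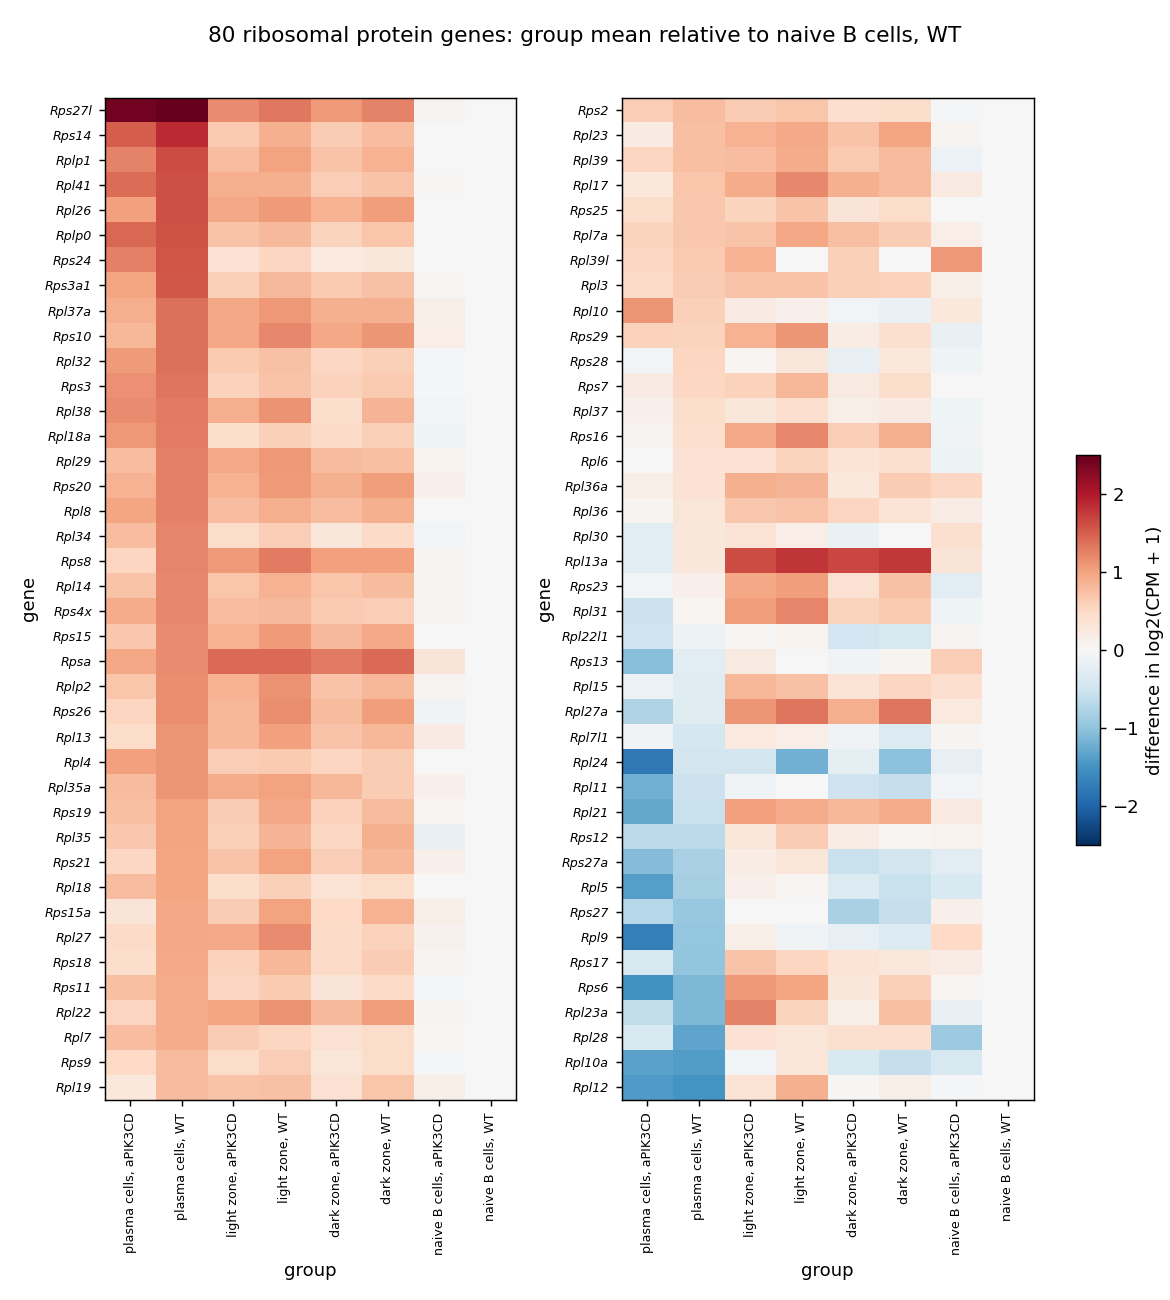
Difference in log2(CPM + 1) of 80 of the 81 ribosomal protein genes between the group mean and the mean of naive B cells of WT mice (red higher, blue lower), with genes ordered by the value in plasma cells of WT mice, in 2 columns. Dark zone WT replicate 3 is left out. Rps27l and Rps14 lead the plasma cell columns, Rpl13a is highest in the germinal centre columns, and Rpl10a and Rpl12 are lowest in the WT plasma cell column.

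Most members that changed were higher in plasma cells than in naive B cells, in both genotypes. In aPIK3CD, 34 of 75 members tested were higher and 6 lower at an edgeR adjusted p below 0.05, with a median log2 fold change of 0.49. Of all genes tested, 26.5% were higher and 26.2% lower, with a median of -0.077. In WT, 43 of 75 members were higher and 2 lower, with a median of 0.98, where 25.4% of all genes were higher and 24.2% lower, with a median of -0.088. In both genotypes 32 were higher, of 34 in aPIK3CD and 43 in WT, and 2 were lower. Small subunit genes were higher in 15 of 30 cases in aPIK3CD and 20 of 30 in WT, and large subunit genes in 19 and 23 of 45. The 3 stalk genes Rplp0, Rplp1 and Rplp2 rose in both genotypes. By sequence, 23 in aPIK3CD and 26 in WT of 34 members with at least 50% unique windows were higher, and 11 and 17 of 41 with fewer.

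Rps27l, the paralog of a small subunit protein, had the smallest p in both genotypes. In aPIK3CD it had 335, 288, 301 and 286 CPM in plasma cells, against 60.3, 63.3, 68.7 and 45.7 in naive B cells (log2 change 2.36 with SE 0.15, adjusted p = 9.23e-08 by edgeR). In WT it had 387, 473, 330.4 and 407 CPM in plasma cells, against 60.0, 41.5, 56.7 and 67.5 in naive B cells (log2 change 2.87 with SE 0.19, adjusted p = 1.52e-08 by edgeR). Every plasma cell library thus lay far above every naive one. In raw counts the ranges overlapped, with 151 to 215 per plasma cell library and 124 to 180 per naive one, at smaller totals in plasma cells. Rplp0, the anchor of the stalk, had 556, 597, 661 and 558 CPM in plasma cells of aPIK3CD mice, against 213, 242, 223 and 192 in naive B cells of aPIK3CD mice (log2 change 1.47 with SE 0.11, adjusted p = 3.60e-07 by edgeR). In WT its values were 664, 725, 545 and 711 CPM in plasma cells, against 251, 189, 206 and 232 in naive B cells (log2 change 1.64 with SE 0.15, adjusted p = 4.67e-07 by edgeR). The populations did not overlap in either genotype. Its raw counts were lower in plasma cells, 279 to 357 per library, against 519 to 623 in naive B cells. Rps14, a small subunit protein, had 347, 419.6, 444 and 405 CPM in plasma cells of aPIK3CD mice, against 135, 152, 145 and 123 in naive B cells of aPIK3CD mice (log2 change 1.56 with SE 0.12, adjusted p = 5.48e-07 by edgeR). In WT it averaged 511 ± 94.8 CPM in plasma cells and 140.4 ± 25.03 in naive B cells (SD, n = 4 each; log2 change 1.91 with SE 0.18, adjusted p = 5.92e-07 by edgeR). Again no plasma cell library overlapped the naive ones. Rpl4, a large subunit protein at the exit tunnel, had 998, 1093, 943 and 1110.2 CPM in plasma cells of aPIK3CD mice, against 514, 496, 527 and 474 in naive B cells of aPIK3CD mice (log2 change 1.06 with SE 0.08, adjusted p = 4.18e-07 by edgeR). Rpl41, one of the smallest ribosomal proteins, averaged 241 ± 33.2 CPM in plasma cells of WT mice and 78.0 ± 13.1 in naive B cells of WT mice (log2 change 1.68 with SE 0.18, adjusted p = 2.87e-06 by edgeR).

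A few members moved the other way. Those lower in plasma cells were Rpl10a, Rpl12, Rpl21, Rpl30, Rpl9 and Rps13 in aPIK3CD, and Rpl10a and Rpl12, both of the large subunit, in WT. Rpl9 had 10.9, 3.81, 7.49 and 15.3 CPM in plasma cells of aPIK3CD mice, against 44.4, 38.5, 48.9 and 58.1 in naive B cells of aPIK3CD mice (log2 change -2.29 with SE 0.37, adjusted p = 0.000275 by edgeR). The libraries did not overlap, but Rpl9 had 6.68% unique windows and 2 to 9 counts per plasma cell library of aPIK3CD mice. In aPIK3CD, Rps13 fell by 1.73 on the log2 scale (edgeR adjusted p = 0.00531) and Rpl21 fell by 1.65 (edgeR adjusted p = 0.0108). Rpl12, which lies at the base of the stalk, fell by 1.48 in aPIK3CD (edgeR adjusted p = 0.0180). Without plasma cell aPIK3CD replicate 3 its log2 fold change was -1.36 and without replicate 4 it was -1.23, and in neither fit was it called. In WT, Rpl12 had 6.79, 10.4, 10.2 and 2.30 CPM in plasma cells, against 21.3, 22.2, 25.7 and 22.1 in naive B cells (log2 change -1.55 with SE 0.49, adjusted p = 0.0168 by edgeR). Rpl10a had 18.1, 15.6, 17.0 and 13.8 CPM in plasma cells of WT mice, against 37.3, 40.2, 33.5 and 66.3 in naive B cells of WT mice (log2 change -1.40 with SE 0.36, adjusted p = 0.00491 by edgeR). In WT neither Rpl12 nor Rpl10a overlapped between the populations, at 1 to 6 and 6 to 10 counts per plasma cell library. Not tested for want of counts were Rpl23a, Rpl24, Rpl28, Rpl39l, Rps29 and Rps6.

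In the light zone, most members were called higher than in naive B cells and none was called lower. Log2 fold changes below 0 numbered 7 of 78 in aPIK3CD and 1 of 78 in WT. In aPIK3CD, 45 of 78 members were higher and 0 lower, with a median log2 fold change of 0.64, where 21.8% of all genes tested were higher and 20.8% lower, with a median of -0.023. In WT, 52 of 78 were higher and 0 lower, with a median of 0.88, where 19.8% of all genes were higher and 20.2% lower, with a median of -0.042. The higher members shared by both genotypes numbered 43, of 45 in aPIK3CD and 52 in WT. At an unadjusted p below 0.05 by edgeR, 54 members in aPIK3CD and 58 in WT passed, 0 of them lower, against 50% and 48.7% of all genes, and DESeq2 also called 0 lower. Small subunit genes rose in 20 of 32 cases in aPIK3CD and 22 in WT, and large subunit genes in 25 and 30 of 46, the stalk genes included. Rpl4 had 844, 805, 723 and 744 CPM in the aPIK3CD light zone, against 514, 496, 527 and 474 in naive B cells of aPIK3CD mice (log2 change 0.64 with SE 0.075, adjusted p = 3.57e-05 by edgeR). Rpl8, a large subunit protein, had 476, 541, 464 and 485 CPM in the aPIK3CD light zone, against 267, 329.5, 302 and 259 in naive B cells of aPIK3CD mice (log2 change 0.77 with SE 0.10, adjusted p = 7.35e-05 by edgeR). Every light zone library exceeded every naive one for both genes. Also in aPIK3CD, Rplp0 rose by 0.74 (edgeR adjusted p = 9.16e-05).

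In WT, Rpl13a had 53.0, 67.1, 63.0 and 87.1 CPM in the light zone, against 22.7, 13.3, 18.2 and 20.9 in naive B cells (log2 change 1.86 with SE 0.28, adjusted p = 0.000167 by edgeR). Rpl13a was higher in raw counts too, with 79 to 125 per light zone library and 42 to 77 per naive one, so that no light zone library of either genotype fell within the naive range. Its counts in plasma cells were 7 to 15. Rps27l had 123, 136, 111 and 200.2 CPM in the WT light zone, against 60.0, 41.5, 56.7 and 67.5 in naive B cells of WT mice (log2 change 1.35 with SE 0.23, adjusted p = 0.000372 by edgeR), again without overlap. Rpl8 averaged 540.0 ± 123 CPM in the WT light zone and 287 ± 31.1 in naive B cells of WT mice (log2 change 0.92 with SE 0.16, adjusted p = 0.000438 by edgeR), and Rps15 averaged 214 ± 54.9 and 101 ± 21.1 (log2 fold change 1.09, edgeR adjusted p = 0.000900). Their raw counts overlapped, at 660 to 845 per light zone library and 675 to 848 per naive one for Rpl8, and 247 to 332 and 250 to 301 for Rps15.

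In these 4 comparisons population and depth cannot be told apart. Totals of naive B cell libraries did not overlap those of light zone or plasma cell libraries, with log2 ratios of mean totals of -0.78 in aPIK3CD and -0.76 in WT for light zone over naive, and -1.82 and -2.09 for plasma cells over naive. Thinning all libraries to the smallest total of each comparison left 47 and 50 members called for light zone over naive and 39 and 44 for plasma cells over naive, in aPIK3CD and WT in that order. Thinning draws at random from the counts already made and keeps each gene's expected share of its library. It therefore cannot remove a share that moves with depth. The share of all genes called after thinning is not given here. With the log2 total as a covariate, only Rpl13a in the WT light zone stayed called, of 52, and none of the 45 in the aPIK3CD light zone, the 40 in plasma cells of aPIK3CD mice or the 45 in plasma cells of WT mice. The share of all genes called in that fit is not given here, so the loss of calls cannot be read as particular to the members. The members' median log2 fold change in that fit was 0.0041 in the aPIK3CD light zone, 0.32 in the WT light zone, -0.80 in plasma cells of aPIK3CD mice and -0.35 in plasma cells of WT mice.

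**Figure D4:**
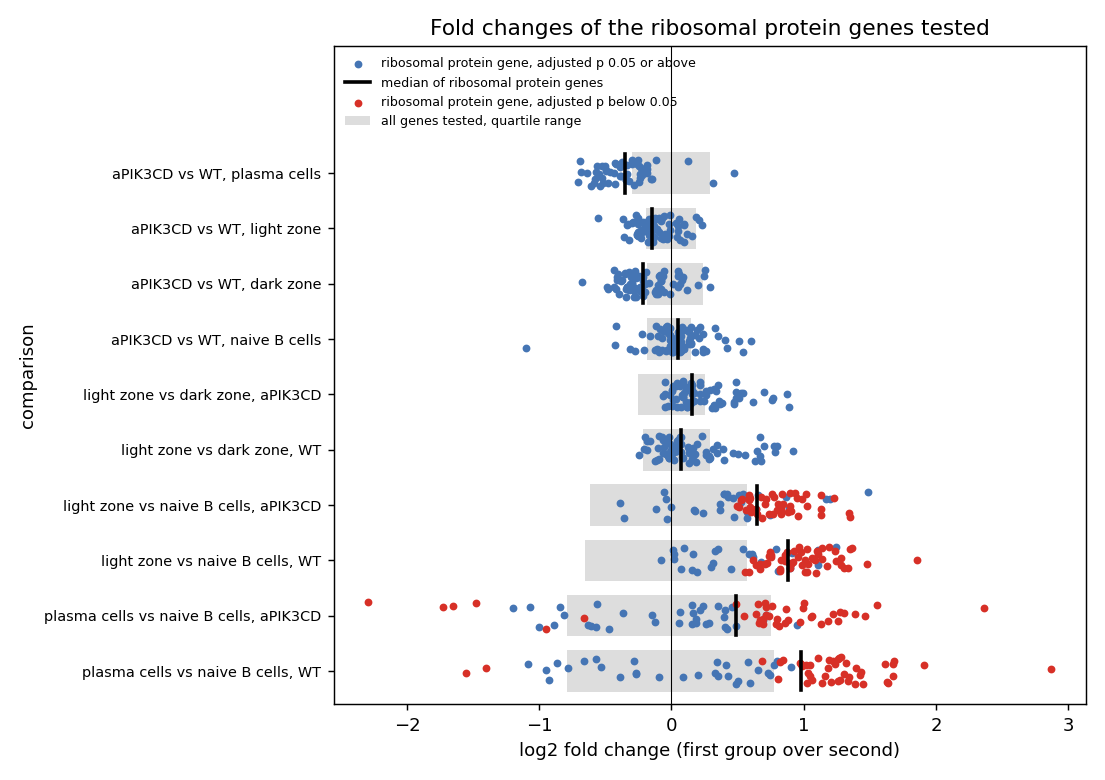
Log2 fold change of each ribosomal protein gene tested (points, red where the edgeR adjusted p is below 0.05) in 10 comparisons, first group over second, with the members' median (black line) and the quartile range of all genes tested (grey bar). Red points appear only against naive B cells, mostly right of 0, and the comparisons of the genotypes and of the zones hold none.

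Between the germinal centre zones no member passed the test. Totals were 1333598 to 1584402 in the light zone and 1154809 to 1941224 in the dark zone of aPIK3CD mice, and 902088 to 1835558 and 25797 to 1464876 in WT mice. In aPIK3CD, light zone over dark zone, 0 of 78 were called by edgeR and 4 had an unadjusted p below 0.05, with a median of 0.15, where 6.04% of all genes were called and 19.5% had such a p. In WT, 0 of 78 were called and 5 had an unadjusted p below 0.05, with a median of 0.073, where 2.55% of all genes were called and 15.5% had such a p. DESeq2 also called 0 in both, and so did edgeR with the log2 total as a covariate, where the medians were 0.13 in aPIK3CD and 0.16 in WT. In aPIK3CD, Rps27a, which is made as a fusion with ubiquitin, had 36.0, 43.8, 40.5 and 42.4 CPM in the light zone, against 28.7, 26.1, 21.1 and 19.8 in the dark zone (log2 change 0.76 with SE 0.26, adjusted p = 0.0992 by edgeR). The zones did not overlap for Rps27a in aPIK3CD, and Rpl7l1 followed there (log2 fold change 0.32, edgeR adjusted p = 0.150). Among members below 0 in aPIK3CD, the smallest p values were those of Rps3a1 (-0.051, edgeR adjusted p = 0.925) and Rpl13a (-0.048, edgeR adjusted p = 0.942), and both log2 fold changes were above 0 without dark zone aPIK3CD replicate 2, at 0.016 and 0.033. Rpl7l1 had the smallest p in WT. In the WT light zone it had 255, 233, 231 and 182 CPM, against 132, 139.9, 68.1 and 199.6 in the WT dark zone (log2 change 0.56 with SE 0.17, adjusted p = 0.0909 by edgeR), and 3 of the 4 light zone libraries exceeded every dark zone library. Without a filter on low counts, or without dark zone WT replicate 4 or light zone WT replicate 4, Rpl7l1 was called. Rpl10a averaged 54.6 ± 7.34 CPM in the WT light zone and 22.1 ± 17.0 in the WT dark zone, where replicate 3 held 0 counts (log2 change 0.92 with SE 0.30, adjusted p = 0.112 by edgeR). Below 0, the smallest p values in WT were those of Rpl4 (-0.20, edgeR adjusted p = 0.743) and Rpl8 (-0.21, edgeR adjusted p = 0.762). Without dark zone WT replicate 3 these log2 fold changes were 0.031 and 0.021, those of Rpl7l1 and Rpl10a were 0.53 and 0.88 (edgeR adjusted p = 0.112 for both), the median was 0.16 and 0 members were called.

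The genotypes were compared within each population, and no member passed edgeR's test in any. In plasma cells 0 of 55 members tested were called, against 3.2% of all genes, and 19 had an unadjusted p below 0.05, which is 34.5%, against 23.3% of all genes. The members' median was -0.35, with 52 of 55 values negative. DESeq2 called 2 of the 30 members to which it gave an adjusted p, Rps15 and Rps27l. Without plasma cell WT replicate 3, edgeR also called 2 of 57 members tested, Rps15 and Rps3a1. The share of all genes called in either fit is not given here. Plasma cell totals were 652722 to 788999 in aPIK3CD and 473149 to 704361 in WT. With the log2 total as a covariate the median was -0.00094. Rps15, a small subunit protein at the decoding site, had 173, 160.2, 153 and 163 CPM in plasma cells of aPIK3CD mice, against 245, 283, 189 and 209 in plasma cells of WT mice (log2 change -0.54 with SE 0.15, adjusted p = 0.0685 by edgeR). Rpl14 averaged 123 ± 10.9 CPM in aPIK3CD and 173 ± 18.7 in WT (log2 change -0.52 with SE 0.14, adjusted p = 0.0669 by edgeR). In CPM the libraries of the genotypes did not overlap for either gene. In raw counts they did, at 82 to 111 per library in aPIK3CD and 91 to 111 in WT for Rps15. For Rpl14 the raw counts were 66 to 74 and 71 to 94. Rpl10, which joins the large subunit in its final maturation, had 77.9, 105, 78.6 and 66.4 CPM in plasma cells of aPIK3CD mice, against 52.1, 54.5, 52.8 and 71.3 in plasma cells of WT mice (log2 change 0.47 with SE 0.23, adjusted p = 0.229 by edgeR). Rpl7l1 averaged 188 ± 17.9 CPM in aPIK3CD and 147 ± 30.3 in WT (log2 change 0.31 with SE 0.15, adjusted p = 0.238 by edgeR). For both, the ranges of the genotypes overlapped. In plasma cells 26 members were not tested because of low counts, among them Rps6, Rps27, Rpl5 and Rpl11.

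In the light zone 0 of 78 members were called between aPIK3CD and WT, against 0% of all genes, with a median of -0.15. None of the members had an unadjusted p below 0.05, against 6.63% of all genes, and DESeq2 called 0 members. With the log2 total as a covariate, at the totals given above for the light zone, 0 were called and the median was -0.078. Without light zone WT replicate 4, the shallowest of its group at 902088 counts, the median was 0.012. Rpl12, with the smallest p, had 18.7, 36.9, 24.9 and 36.0 CPM in aPIK3CD and 36.2, 39.2, 37.8 and 59.1 in WT (log2 change -0.55 with SE 0.29, adjusted p = 0.764 by edgeR), and the ranges overlapped. Rps19, a small subunit assembly protein, had a log2 fold change of -0.32 (edgeR adjusted p = 0.768), and above 0 Rpl9 had 0.23 (edgeR adjusted p = 0.867) and Rps13 0.21 (edgeR adjusted p = 0.880). In the dark zone 0 of 77 were called, against 0.021% of all genes, with 0 members and 7.5% of all genes at an unadjusted p below 0.05 and 0 members called by DESeq2. The median was -0.22, and -0.11 without dark zone WT replicate 3, where 0 of 78 members were called. With the covariate, a fit that also leaves out that library, 0 were called and the median was -0.042. Rpl27a averaged 57.6 ± 10.6 CPM in aPIK3CD and 75.7 ± 7.08 in WT (log2 change -0.44 with SE 0.24, adjusted p = 0.715 by edgeR), and Rps15a had a log2 fold change of -0.48 (edgeR adjusted p = 0.733). Without that library these were -0.44 and -0.38. On the positive side Rpl7l1 had 0.29 (edgeR adjusted p = 0.743), followed by Rpl10a with 0.25 (edgeR adjusted p = 0.902). They had 0.27 and 0.21 without dark zone WT replicate 3.

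In naive B cells 0 of 78 members and 0% of all genes were called between aPIK3CD and WT. The members' median was 0.05, 47 values being positive and 31 negative, and no member had an unadjusted p below 0.05, against 3.06% of all genes. Totals were 2332364 to 2688981 in aPIK3CD and 1965329 to 2820830 in WT, and with the log2 total as a covariate 0 members were called and the median was 0.08. DESeq2 called 0 members here too. Rpl9 had 44.4, 38.5, 48.9 and 58.1 CPM in aPIK3CD, against 23.7, 30.1, 27.8 and 51.0 in WT (log2 change 0.51 with SE 0.29, adjusted p = 1.0 by edgeR). The groups overlapped through WT replicate 4. Rpl30 had a log2 fold change of 0.41 (edgeR adjusted p = 1.0), Rpl10a one of -0.42 (edgeR adjusted p = 1.0) and Rpl28 one of -1.10 (edgeR adjusted p = 1.0). Rpl28 had 6 to 36 counts per naive library. Whether the genotype effect differed among the 4 populations was asked in 1 model over the 32 libraries. By edgeR it did so for 0 of 78 members, against 0.0256% of all genes, and 0 members and 7.07% of all genes had an unadjusted p below 0.05, with the smallest p values at Rpl13a (edgeR adjusted p = 0.761) and Rpl30 (edgeR adjusted p = 0.820). Between the zones alone the genotype effect differed for 0 of 78 members and 0% of all genes, with 0 members and 3.26% of all genes at an unadjusted p below 0.05, and with a difference in log2 fold change of 0.30 for Rpl4 and -0.61 for Rpl10a, or 0.063 and -0.56 without dark zone WT replicate 3. DESeq2 called 0 members in both tests, and so did edgeR without that library.

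Members that are paralogs by name were compared with the gene they are named after within each library. Unique windows were 77.6% for Rps27l and 1.35% for Rps27, 34.4% for Rpl22l1 and 75.5% for Rpl22, and 90.8% for Rpl7l1 and 46.7% for Rpl7. The ratios are therefore ratios of measured counts, to be set against each other between groups, and not ratios of true levels. The ratio does not free the pairs of depth: within-group slopes per doubling of the total were -0.78 for Rps27l and -0.14 for Rps27, -0.47 for Rpl22l1 and -0.95 for Rpl22, and 0.40 for Rpl7l1 and -0.58 for Rpl7. For ratios set against naive B cells, whose totals did not overlap those of plasma cells or the light zone, population and depth cannot be told apart. The ratio of counts of Rps27l to Rps27 (0.5 added to each) had a geometric mean of 24.2 in plasma cells of aPIK3CD mice and 37.9 in plasma cells of WT mice, 6.36 and 6.81 in the light zone, 10.5 and 11.2 in the dark zone, and 2.66 and 2.82 in naive B cells. Ranges in WT were 22.9 to 68.6 in plasma cells and 1.98 to 5.03 in naive B cells, without overlap. Rps27 itself averaged 10.1 ± 4.19 CPM in plasma cells of WT mice and 20.2 ± 5.83 in naive B cells of WT mice, on 2 to 8 counts per plasma cell library (log2 change -0.95, edgeR adjusted p = 0.125). Rpl22l1, the paralog of Rpl22, ran the other way. Its ratio to Rpl22 was 0.239 in plasma cells of aPIK3CD mice and 0.233 in plasma cells of WT mice, 0.251 and 0.246 in the light zone, 0.195 and 0.154 in the dark zone, and 0.477 and 0.499 in naive B cells. Rpl22 averaged 177 ± 58.3 CPM in the WT light zone and 80.9 ± 15.4 in naive B cells of WT mice, and Rpl22l1 averaged 42.3 ± 7.70 and 39.8 ± 3.09. The WT light zone and naive means thus differed more in Rpl22 than in Rpl22l1. The ratio of Rpl7l1 to Rpl7 was 1.26 in plasma cells of aPIK3CD mice and 0.875 in plasma cells of WT mice, 1.72 and 1.76 in the light zone, 1.64 and 1.03 in the dark zone, and 2.32 and 2.26 in naive B cells. Without replicate 3, in which Rps27 had 0 counts, the WT dark zone had ratios of 10.2 for Rps27l, 0.179 for Rpl22l1 and 1.27 for Rpl7l1.

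With 4 libraries against 4 the smallest two-sided exact permutation p is 0.0286, and over the 30 tests of the 3 ratios in 10 comparisons its adjusted value was 0.0659, so none passed. At that smallest p were 5 of 10 comparisons of Rps27l to Rps27, 5 of Rpl22l1 to Rpl22 and 3 of Rpl7l1 to Rpl7, all between populations. Between the genotypes the smallest exact p was 0.114. Rpl39l, the paralog of Rpl39 described from testis, had 22 counts spread over 8 of 32 libraries, 7 of them aPIK3CD, with at most 5 in a library, and no test was made. The 4 libraries titled aPIK3CD replicate 1, whose genotype field reads WT, each had 0. Rpl3l, described from muscle, and Rpl10l, described from testis, had 1 and 0 counts over all libraries.

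**Figure D5:**
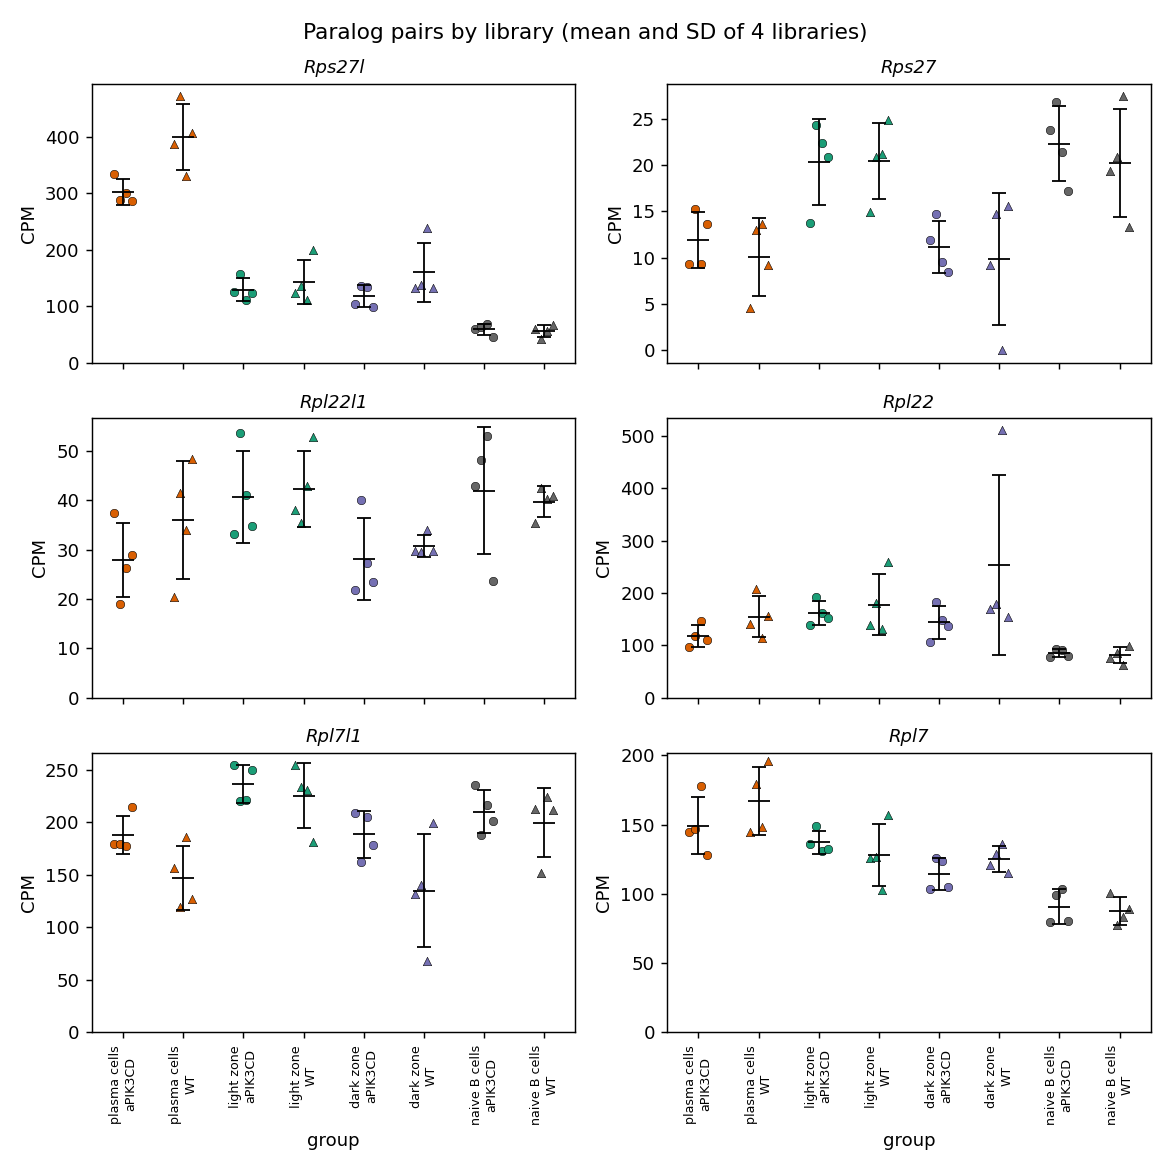
CPM of 3 paralogs (left) and the genes they are named after (right) in each library of the 8 groups, circles for aPIK3CD and triangles for WT, with the mean and SD of 4 libraries. Rps27l is high in all plasma cell libraries, while Rps27 is low in plasma cells and in the dark zone alike. Rpl22 is higher outside naive B cells while Rpl22l1 spreads widely, and dark zone WT replicate 3 stands apart for Rpl22.

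Further members with known special roles were looked at in every group. Rps6, the S6 kinase substrate, had 10.1, 11.1, 11.2 and 20.3 CPM in the aPIK3CD light zone and 14.3, 15.2, 6.04 and 13.5 in the WT light zone, which overlapped. In naive B cells it had 5.05, 7.38, 5.35 and 5.85 CPM in aPIK3CD and 6.29, 6.33, 6.06 and 4.02 in WT. In plasma cells it had at most 2 counts in a library, at or below the limit of 3 counts that a count of 0 allows. Rpsa, the laminin receptor precursor of the small subunit, averaged 47.4 ± 5.63 CPM in aPIK3CD and 47.8 ± 12.1 in WT in the light zone, and 21.7 ± 7.44 and 17.2 ± 3.41 in naive B cells, rising by 1.13 in aPIK3CD (edgeR adjusted p = 0.00823) and 1.48 in WT (edgeR adjusted p = 0.00193). Rpl5 and Rpl11, which with the 5S RNA bind Mdm2, averaged 17.8 ± 7.29 and 19.2 ± 7.16 CPM in the WT light zone and 17.1 ± 7.12 and 19.0 ± 2.32 in naive B cells of WT mice, within the spread of the libraries (edgeR adjusted p = 0.916 and 0.978). Their unique windows were 6.16% and 37.8%. Rplp1 averaged 168 ± 18.1 CPM in aPIK3CD and 222 ± 63.6 in plasma cells of WT mice, and 71.1 ± 11.3 and 71.2 ± 13.1 in naive B cells. Rplp2, its partner, averaged 88.2 ± 8.75 and 123 ± 31.6 CPM in plasma cells and 57.1 ± 6.20 and 54.2 ± 7.43 in naive B cells. The pair moved as Rplp0 did, by 1.69 and 1.22 on the log2 scale in plasma cells of WT mice over naive B cells (edgeR adjusted p = 1.83e-05 and 0.000321). Rps19, whose human gene is mutated in Diamond-Blackfan anaemia, averaged 156 ± 24.3 CPM in aPIK3CD and 187 ± 31.2 in WT in plasma cells, 144 ± 19.1 and 181 ± 57.6 in the light zone, and 96.0 ± 12.1 and 92.1 ± 19.8 in naive B cells. It rose in plasma cells over naive B cells by 0.72 in aPIK3CD and 1.07 in WT (edgeR adjusted p = 0.00390 and 0.000489). Rpl10 averaged 43.9 ± 5.12 CPM in aPIK3CD and 41.5 ± 6.76 in WT in the light zone, and 45.5 ± 17.3 and 37.7 ± 11.6 in naive B cells, with adjusted p values by edgeR of 0.920 and 0.706. Among the members with the lowest levels, Rpl24 had 0 to 2 counts per plasma cell library, 0 to 6 per light zone library and 5 to 17 per naive library, and Rpl23a had 0 to 1, 1 to 8 and 1 to 5. No comparison tested these genes.

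Genes related to the members by function were counted in the same fits. Of 23 other TOP genes, mostly translation factors, 18 in aPIK3CD and 16 in WT were higher in the light zone than in naive B cells and 0 lower, and 13 and 16 were higher in plasma cells, with 2 and 1 lower. Of all genes, 21.8% and 19.8% were higher in the light zone and 20.8% and 20.2% lower. In plasma cells 26.5% and 25.4% were higher and 26.2% and 24.2% lower. For these lists too, population and depth cannot be told apart against naive B cells, and their fits with the covariate are not given. Eef1a1, the elongation factor that delivers aminoacyl-tRNA, averaged 739 ± 117 CPM in plasma cells of WT mice and 236 ± 32.7 in naive B cells of WT mice (SD, n = 4 each; log2 change 1.70 with SE 0.16, adjusted p = 6.23e-07 by edgeR). Pabpc1, the poly(A) binding protein, averaged 487 ± 95.7 CPM in the WT light zone and 231 ± 19.7 in naive B cells of WT mice (log2 change 1.09 with SE 0.15, adjusted p = 6.58e-05 by edgeR). Between the zones 1 of the 23 TOP genes (4.35%) passed in aPIK3CD, against 6.04% of all genes, and 0 in WT. It was Npm1, a nucleolar chaperone (log2 change 0.46 with SE 0.12, adjusted p = 0.0341 by edgeR). Between the genotypes 0 TOP genes passed in any population, Pabpc1 in plasma cells coming nearest (log2 change -0.56 with SE 0.15, adjusted p = 0.0562 by edgeR). Of the 4 ribosomal proteins that the name rule does not take, 3 rose in the light zone of each genotype and 2 in plasma cells of each, beside the shares of all genes given above. Rpl36al averaged 121 ± 12.2 CPM in plasma cells of WT mice and 15.1 ± 1.22 in naive B cells of WT mice (log2 change 3.03 with SE 0.23, adjusted p = 5.30e-08 by edgeR). Rack1, a signalling scaffold on the small subunit, averaged 1004 ± 200.4 CPM and 438 ± 55.5 (log2 change 1.25 with SE 0.16, adjusted p = 1.19e-05 by edgeR).

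Mitochondrial ribosomal protein genes, whose products translate the messages of the mitochondrial genome, rose in 50 of 77 cases in the aPIK3CD light zone and 44 of 77 in the WT light zone against naive B cells, with 0 lower. In plasma cells over naive B cells 36 of 76 were higher and 5 lower in aPIK3CD, and 35 of 75 and 2 in WT. Of all genes, 21.8% in aPIK3CD and 19.8% in WT were higher in the light zone, and 26.5% and 25.4% in plasma cells. Population and depth cannot be told apart here either. Mrpl57 averaged 481 ± 78.6 CPM in plasma cells of WT mice and 85.1 ± 21.9 in naive B cells of WT mice (log2 change 2.55 with SE 0.20, adjusted p = 1.06e-07 by edgeR). The shallower within-group slope of these genes with depth was given above. Between zones, 4 of 77 (5.19%) passed in aPIK3CD, against 6.04% of all genes, led by Mrps35 (log2 change 0.78 with SE 0.19, adjusted p = 0.0197 by edgeR), and 0 in WT, and between the genotypes 0 passed in any population. Of the 8 regulators, Myc is a transcription factor that drives ribosome production and one of the light zone markers above. It averaged 153 ± 31.2 CPM in the WT light zone and 56.6 ± 32.5 in the WT dark zone, replicate 3 included (log2 change 1.85 with SE 0.25, adjusted p = 0.000286 by edgeR). It also rose in the aPIK3CD light zone (log2 change 1.55 with SE 0.25, adjusted p = 0.00156 by edgeR) and fell in plasma cells against naive B cells, with a log2 change of -1.88 in aPIK3CD and -2.15 in WT (edgeR adjusted p = 7.75e-06 and 2.47e-06). Eif4ebp1, the translation repressor that mTORC1 switches off, rose in plasma cells by 2.04 in aPIK3CD and 1.98 in WT (edgeR adjusted p = 2.78e-07 and 2.50e-06). Rps6kb1, an S6 kinase, rose in the light zone against naive B cells by 0.87 in aPIK3CD and 1.03 in WT (edgeR adjusted p = 4.34e-05 and 5.37e-05). Between the genotypes 0 of the 8 regulators passed, Rps6kb2 in plasma cells having the smallest adjusted p (log2 change 0.64 with SE 0.19, adjusted p = 0.0786 by edgeR).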

How the data were processed

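Naive, dark zone, light zone and plasma cells of aPIK3CD and WT mice were sequenced, 4 libraries in each of 8 groups. The deposited table holds the authors' raw counts per gene, not normalized. The submitters' processing notes name STAR 2.4.2a, HTSeq and Picard, and the genome build, strand setting and treatment of reads with several matches are not given in the sources used here. Reads carry no molecular identifiers named in the labels, so counts are not independent molecules, and limits from counts cover counting error only. Genes with an identifier but no name, 3433 rows with 0.173% of the counts, stayed in the fits.

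CPM values and tests were computed from these counts. Counts were fitted with edgeR 4.0.16 (R 4.3.3; TMM scaling, filterByExpr with a minimum count of 10 and total of 15, quasi-likelihood F test), each comparison on its own 8 libraries, with Benjamini-Hochberg adjustment over all genes tested and calls at an adjusted p below 0.05. The standard error of a log2 fold change was taken as its size over the square root of F. Interactions were tested in 1 fit of 32 libraries. Ratios of paralogs were compared by two-sided exact permutation tests. The code was tested on simulated data. Exon lengths and windows of 50 bases came from the GENCODE annotation supplied with the reference, and start sites from RefSeq (GRCm38.p6).

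The members and lists were chosen with earlier results of these data known. Genes named are, per comparison, up to 4 called members in each direction with the smallest p (2 where none was called), paralogs by name, the 5 highest and 5 lowest levels, Rps6, the stalk genes, Rpl5, Rpl11, Rpsa, Rps19 and Rpl10, and up to 4 genes of a list. Rps21 and Rps28, given only for their slope on depth, were picked with their values in view. For 1 member, which stayed in all counts and medians, individual values are not reported here.

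Results were recomputed with DESeq2 1.42.0 and its size factors, no filter, TMM without the members, a correction for saturated positions, aPIK3CD replicate 1 counted as WT, thinning, the log2 total as a covariate, each library left out and the replicate number as a block. Replicate numbers recur across groups, in the library names too, and the labels do not say whether a number marks the same animal. In no comparison did every same-numbered pair correlate above 0.1. The main fits and the interactions therefore treated libraries as unpaired, which does not exclude pairing.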

Additional observations from a re-analysis of the deposited data

Results flagged for a closer look

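Of 112 checks of single groups of 4 libraries, over the summed share and 13 members, 17 found 1 library far from the other 3, and chance flags about 1 in 20. Dark zone WT replicate 3, with 25797 counts, gave 11 of the 17. Its member share was 2.42%, and the other 3 libraries lay between 0.786% and 0.841%. Its CPM was 238 for Rps27l (others 132 to 138), 511 for Rpl22 (others 154 to 179), 34.1 for Rpl22l1 (others 29.4 to 29.8), 1873 for Rpl4 (others 763 to 803) and 1022 for Rplp0 (others 349 to 364). Rplp1 stood at 477 (others 121 to 138), Rplp2 at 409 (others 90.7 to 100.04) and Rps14 at 1056 (others 227 to 248). Rps6, at 0 (others 8.83 to 9.22), and Rpl13a, at 34.1 (others 66.0 to 68.1), also met the criterion. In this library 3 counts correspond to 116 CPM without TMM scaling, and its Rpl13a and Rpl22l1 values are 1 count each, so these 3 values show no departure at this depth.

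The other 6 were single genes. Rps6 had 20.3 CPM in light zone aPIK3CD replicate 4 (others 10.1 to 11.2) and 4.02 in naive WT replicate 4 (others 6.06 to 6.33). Rpl13a had 71.0 CPM in light zone aPIK3CD replicate 2 (others 55.4 to 57.5) and 29.9 in naive aPIK3CD replicate 2 (others 21.7 to 22.1). Rpl7l1 had 215 CPM in plasma cell aPIK3CD replicate 4 (others 178 to 179) and 151 in naive WT replicate 2 (others 212 to 224).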

How the results depend on the processing

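Over the 10 comparisons and 2 interactions, 179 of 188 recomputed counts of called members stayed within 1.5 times the reported count, and 9 did not. In plasma cells, aPIK3CD over WT, DESeq2 called 2 of the 30 members with an adjusted p, and leaving out single libraries gave 0 to 2. In WT, light zone over dark zone, fits with no filter called 1 and leaving out single libraries gave 0 to 1. With the log2 total as a covariate, a fit chosen after seeing the data for comparisons of populations, 0 members were called in aPIK3CD (median 0.0041) and 1 in WT (median 0.32) for light zone over naive, and 0 in aPIK3CD (median -0.80) and 0 in WT (median -0.35) for plasma cells over naive. The share of all genes called in these fits is not given here. The plasma cell median of aPIK3CD over WT with the covariate was -0.00094. Of 832 recomputed values of named members, 794 kept direction and call, 17 lost the call, 5 gained one and 16 changed sign. Sign changes under the covariate were Rplp0 at -0.029 (light zone over naive, aPIK3CD), Rplp0 at -0.47, Rps14 at -0.72, Rpl9 at 3.16 and Rpl21 at 0.80 (plasma cells over naive, aPIK3CD) and Rps14 at -0.39 and Rpl41 at -0.042 (the same, WT). In WT, light zone over dark zone, Rpl4 was at 0.018 after thinning, 0.029 with the covariate and -0.32 to 0.031 with single libraries left out, and Rpl8 at 0.0085, 0.012 and -0.36 to 0.021. In aPIK3CD the ranges with single libraries left out were -0.13 to 0.016 for Rps3a1 and -0.14 to 0.033 for Rpl13a, which was at 0.032 after thinning. The causes were not tested. With the replicate number as a block, 42 members were called in aPIK3CD and 49 in WT for light zone over naive, 37 and 43 for plasma cells over naive, and 0 elsewhere. In aPIK3CD light zone over dark zone every library correlated best with its own number (r 0.050 to 0.19). For WT light zone over naive, 3 of 4 light zone and 4 of 4 naive libraries did so (r 0.018 to 0.077). In the other comparisons fewer did so. Library names repeat these numbers across populations, and the labels do not say whether a number marks the same animal. Plasma cell libraries, with 7 to 15 counts of Rpl13a and 1 to 7 of Rpl12 each, limit what can be said of weak members.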
